A study of Mus musculus and Homo sapiens with 10 samples.

Results

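The complete UBF and RNA polymerase I (Pol I) peak lists of NIH3T3 cells, an immortalized mouse fibroblast line, were set against each other. Both were made by ChIP-seq, in which DNA bound by a protein is pulled down with an antibody and sequenced, and a peak is a region where such DNA is enriched. The UBF list held 3704 peaks and the Pol I list 1409, together 5113 of the 208002 peaks in the 10 lists of the series. UBF was precipitated with a rabbit polyclonal antibody that recognises both forms, UBF1 and UBF2, and Pol I with rabbit polyclonal antibodies against its largest subunit, POLR1A (RPA194). The labels name no treatment and no genetic change for these cells, which were harvested during exponential growth in serum-supplemented medium. The same line was also mapped for H3K4me3, H3K9me3, H3K9ac, hyperacetylated H4 and Pol II phosphorylated on its C-terminal repeat, and those 5 lists are used below to describe the sites. A site is called active where it overlaps Pol II, H3K4me3, H3K9ac and hyperacetylated H4, partly active where it overlaps some of these, and unmarked where it overlaps no peak of the 5 lists. Each antibody has 1 list without scores, so depth and peak strength are unknown, no value has a replicate error, and no test between the lists was possible. Intervals in brackets are exact (Clopper-Pearson) 95% binomial intervals for shares and order-statistic intervals at the same level for medians. They cover counting error only, and neighbouring peaks are not independent.

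Pol I is the polymerase that transcribes the large ribosomal RNA precursor. UBF is a DNA-binding protein with several HMG boxes that sits along the ribosomal RNA genes, keeps their chromatin open and helps to assemble the Pol I initiation complex at their promoter. The tandem arrays of these genes in the nucleolar organizer regions are largely missing from the assembled chromosomes, so that peaks on those chromosomes are mostly sites outside the arrays. Pol II transcribes protein-coding genes, H3K4me3, H3K9ac and acetylated H4 mark active promoters and open chromatin, and H3K9me3 marks silent chromatin. Positions are those of the deposited lists, on the mouse build mm9. The comparison addresses the question, named in the study's design, of how UBF binding across the genome relates to Pol I.

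UBF peaks were more numerous and wider than Pol I peaks. UBF peaks had a median width of 981 bp (quartiles 832 and 1194), and Pol I peaks one of 230 bp (quartiles 160 and 305). UBF peaks covered 3.97 Mb, against 0.341 Mb for Pol I, or 0.15% and 0.0129% of the 2638 Mb that the NIH3T3 lists span on chromosomes 1 to 19 and X. That is 1 UBF peak per 0.722 Mb and 1 Pol I peak per 1.87 Mb. The 49 UBF peaks off these chromosomes lay mostly on the unplaced part of chromosome Y, with 42 peaks, a sequence on which the Pol I list had no peak. The Pol I list had 2 peaks off these chromosomes, both on chromosome Y. Pol I peaks more often had a neighbour of their own kind within 500 bp. A gap of at most 500 bp separated 27 of 3680 neighbouring UBF pairs (0.734%) and 53 of 1388 neighbouring Pol I pairs (3.82%). At most 10 kb separated 124 UBF pairs (3.37%) and 82 Pol I pairs (5.91%). The gaps of at most 500 bp thus made up 53 of these 82 Pol I pairs and 27 of the 124 UBF pairs. Whether Pol I peaks so close together are parts of 1 site was not tested.

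A minority of each list met the other. Overlap of at least 1 bp was found for 271 UBF peaks (7.32%, 6.50 to 8.20) and 294 Pol I peaks (20.9%, 18.8 to 23.1). The lists differ in length and width, so the shares are not measures of one quantity. In the wider 50% of each list, where a peak has fewer possible partners, they were 4.47% and 13.05%. With the whole lists, 0.081% of UBF peaks had at least 50% of their width covered. No Pol I peak touched more than 1 UBF peak. Of the 271 UBF peaks, 252 held 1 Pol I peak, 17 held 2, 1 held 3 and 1 held 5. In the 19 UBF peaks with several Pol I peaks, the gaps between neighbouring Pol I peaks ran from 4 to 1021 bp with a median of 64 bp. Joining Pol I peaks within 500 bp of each other left the share of UBF peaks at 7.32% and gave 20.2% for Pol I. A shared UBF peak was covered by Pol I over a median of 16% of its width (quartiles 10.8 and 23.3%). The shared sites were thus small Pol I intervals within larger UBF intervals.

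Few peaks lay near the other protein without touching it. Centre to centre, 142 UBF peaks (3.88%) and 142 Pol I peaks (10.1%) had the other protein within 100 bp. Within 1 kb the numbers were 281 (7.68%) and 298 (21.1%). They grew little up to 10 kb, where they stood at 355 (9.70%) and 358 (25.4%), so most of the close partners were already met within 1 kb. Counted by the gap between edges, 23 UBF peaks and 22 Pol I peaks lay near the other list without overlap, at 1 to 1000 bp.

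Most UBF peaks were far from any Pol I peak. The median distance from a UBF peak to the nearest Pol I centre was 540 kb (497 to 578, n = 3658 peaks), with quartiles of 130 kb and 1.54 Mb. From a Pol I peak to the nearest UBF centre it was 102 kb (88.1 to 113, n = 1409), with quartiles of 7.88 and 267 kb. The Pol I list is the shorter, and distances to a shorter list are longer, so the 2 medians are not measures of one quantity. In the wider 50% of each list, which is shorter still, they were 1089 kb and 170.9 kb. Within 1 Mb, 64.6% of UBF peaks had a Pol I peak and 96.8% of Pol I peaks had a UBF peak. Peaks on chromosomes 1 to 19 and X were also put in order of their start. The next peak after a UBF peak was then Pol I in 949 of 3644 cases (26.04%). The next after a Pol I peak was Pol I in 453 of 1398 cases (32.4%), where Pol I makes up 27.8% of all peaks. A Pol I peak that starts inside a UBF peak counts here as the next one, and 271 UBF peaks overlapped Pol I. The 26.04% thus includes overlapping pairs and is not a share of separate neighbours.

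**Figure D1:**
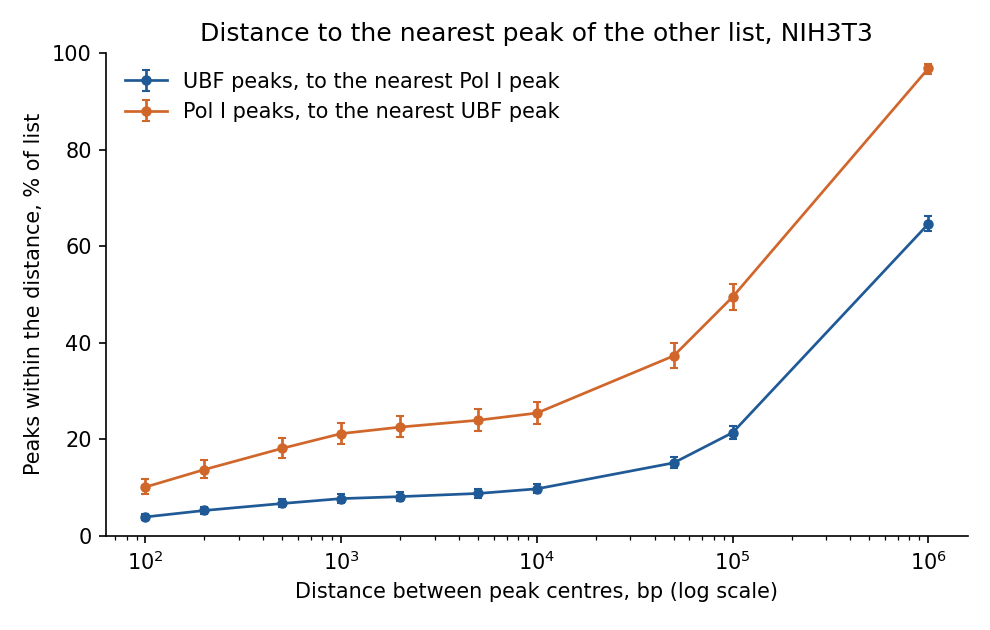
Share of UBF peaks (blue) and of Pol I peaks (orange) with a peak of the other list within a given centre-to-centre distance, on a log axis in bp, with exact 95% binomial intervals as bars. Both curves are nearly flat between 1 and 10 kb, at 7.68 to 9.70% for UBF and 21.1 to 25.4% for Pol I.

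Where the lists overlapped, most Pol I peaks lay wholly inside the UBF peak, and how central they were differed with chromatin. Of the 294 pairs, 265 (90.1%, 86.1 to 93.3) had the Pol I peak wholly inside the UBF peak, and in 192 (65.3%, 59.6 to 70.7) its centre fell in the central 33.3% of the UBF width. Median widths in these pairs were 194 bp for Pol I and 1081.5 bp for UBF. A narrow peak that meets a wide one often lies wholly inside it, and the part of width in the 90.1% was not tested. With the UBF width cut into 10 equal parts, the 2 central parts held 68 and 72 Pol I centres, and the outermost parts 9 and 7. The median offset between centres was 117 bp (88.5 to 145), which is 21.5% of the distance from the UBF centre to its edge. Pol I centres lay on the side of lower coordinates in 143 pairs and of higher coordinates in 150. Strand is not known for these sites, so the even split says nothing about upstream or downstream. The 29 Pol I peaks that leaned over an edge, 13 at the lower and 16 at the higher coordinate, were all at active UBF peaks.

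Pol I sat closer to the UBF centre at unmarked sites than at active ones. At the 136 active UBF peaks (152 pairs) the median offset was 263 bp (190 to 352). At the 88 unmarked UBF peaks (90 pairs) it was 54.5 bp (45.5 to 80), and the 2 intervals do not overlap. The Pol I centre fell in the central 33.3% of the UBF width in 46.1% of the pairs at active sites (37.9 to 54.3) and in 86.7% of the pairs at unmarked sites (77.9 to 92.9). A Pol I centre within 100 bp of the UBF centre was found in 27.6% of the pairs at active sites (20.7 to 35.5) and in 76.7% of the pairs at unmarked sites (66.6 to 84.9). The Pol I peaks themselves differed too, with a median width of 261 bp at active sites (quartiles 210 and 334) and 102 bp at unmarked sites (quartiles 68.8 and 148).

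Peak widths differed between these sites, and the comparison was repeated within limits of width, set after the data were seen. Widths still differed inside these limits. Among UBF peaks of 800 bp to below 1200 bp the median offset was 204 bp (132 to 323) in 71 pairs at active sites and 52.0 bp (45.0 to 73.5) in 67 pairs at unmarked sites. Median widths in those pairs were 1064 and 944 bp for UBF and 259 and 107 bp for Pol I. With Pol I peaks below 200 bp the medians were 164 bp (61.5 to 327, 36 pairs) and 55.8 bp (45.5 to 83.0, 82 pairs), and here the intervals overlap. The Pol I peaks in those pairs had median widths of 172.5 and 99 bp. Pol I peaks of 200 bp or more gave offsets of 307.5 bp (203 to 410.5, 116 pairs) and 42.0 bp (5.5 to 322.5, 8 pairs). Those intervals overlap too. Over all widths, partly active sites had a median offset of 77.8 bp (52.0 to 123, 44 pairs), between active and unmarked sites. UBF peaks in H3K9me3 alone gave 8 pairs, too few for a narrow interval. Shared UBF peaks with H3K9me3, alone or with other marks, had a median offset of 199 bp (133 to 317, 97 pairs), against 89.5 bp (76.0 to 124, 197 pairs) for those without it. This last comparison has no limit on width. Median widths in those pairs were 1373 bp with H3K9me3 and 981 bp without it for UBF, and 249 and 172 bp for Pol I. The Pol I centre was in the central 33.3% in 57.7% (47.3 to 67.7) and 69.0% (62.1 to 75.4), with overlapping intervals.

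**Figure D2:**
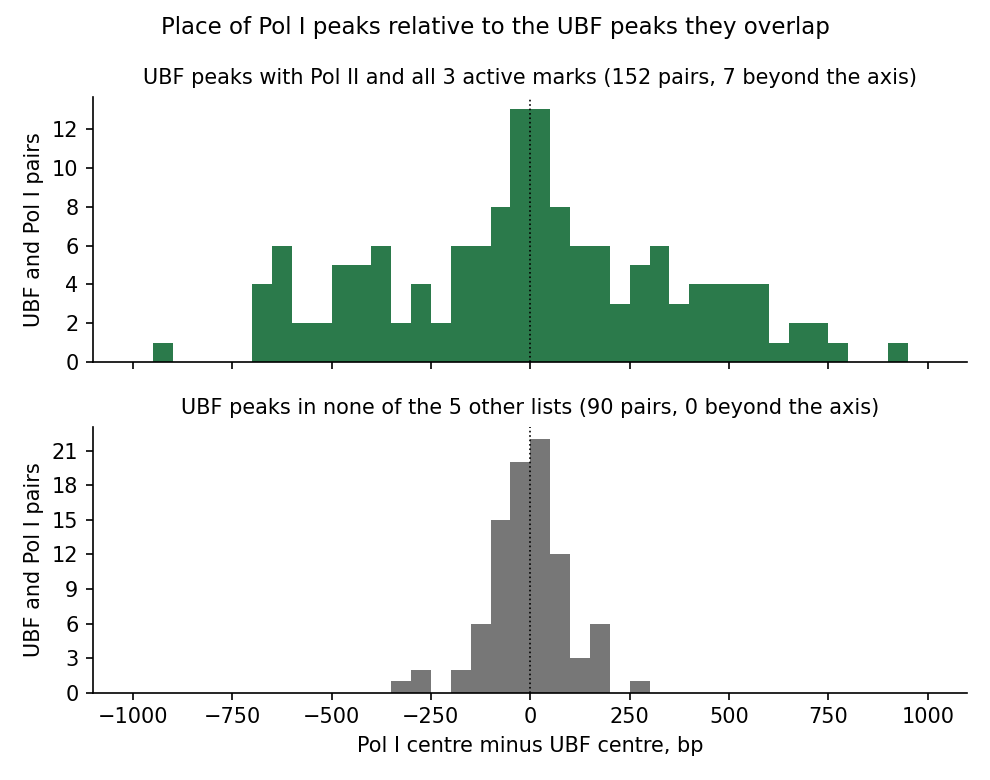
Pol I centre minus UBF centre in bp, in 50-bp steps, for overlapping pairs at active UBF peaks (upper panel, 152 pairs) and unmarked UBF peaks (lower panel, 90 pairs). The upper panel spreads widely on both sides, with a median absolute offset of 263 bp, and the lower one is a narrow peak around 0, with a median of 54.5 bp.

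Where both proteins lay on one H3K4me3 peak, their own peaks usually overlapped. Of the 27982 H3K4me3 peaks, 1794 held UBF, 913 held Pol I and 170 held both, which is 9.48% of those with UBF and 18.6% of those with Pol I. These 170 peaks gave 198 pairs of UBF and Pol I peaks, of which 162 overlapped each other and 36 did not. The 36 separate pairs had centres 615 to 5121 bp apart, with a median of 1221 bp. In the 162 overlapping pairs the UBF centre was closer to the middle of the H3K4me3 peak than the Pol I centre in 112 (69.1%, 61.4 to 76.1), at median distances of 204 and 343 bp. The same held against the middle of the shared Pol II peak, in 117 of 181 pairs (64.6%, 57.2 to 71.6) at 101 and 175 bp. The share was 68.6% for H3K9ac (60.7 to 75.8, 156 pairs), 58.7% for hyperacetylated H4 (51.0 to 66.2, 172 pairs) and 58.1% for H3K9me3 (47.0 to 68.7, 86 pairs), the last with an interval that includes 50%. A Pol I peak is the narrower of the pair and can lie anywhere within the UBF peak, and whether this alone sets the order was not tested.

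The few near misses all carried active marks. All 23 UBF peaks and all 22 Pol I peaks with a gap of 1 to 1000 bp to the other list overlapped H3K4me3, H3K9ac and hyperacetylated H4, and 22 and 17 of them Pol II. Those 22 and 17 were thus active, against 1759 of all 3704 UBF peaks and 763 of all 1409 Pol I peaks. Of the overlapping peaks, 54.6% of UBF peaks (48.5 to 60.6) and 55.1% of Pol I peaks (49.2 to 60.9) overlapped H3K4me3. For UBF the marks thinned out at long range. At gaps above 20 kb and up to 100 kb, 69.3% of 371 UBF peaks (64.3 to 73.9) overlapped H3K4me3, and at gaps over 1 Mb 37.02% of 1294 (34.4 to 39.7). For Pol I the share was 72.6 to 79.2% in each of the 4 gap classes between 1 kb and 1 Mb. It was 44.4% (29.6 to 60.0) for the 45 Pol I peaks with no UBF within 1 Mb.

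Between active and unmarked sites, the share of peaks that met the other protein was higher at active ones for UBF and at unmarked ones for Pol I. Active UBF peaks overlapped Pol I at 7.73% (6.53 to 9.08, 136 of 1759), and unmarked ones at 5.16% (4.15 to 6.31, 88 of 1707). Active Pol I peaks overlapped UBF at 19.1% (16.4 to 22.1, 146 of 763), and unmarked ones at 28.7% (23.8 to 33.9, 92 of 321). At partly active sites the share was 19.9% for UBF (14.6 to 26.1, 40 of 201) and 15.3% for Pol I (11.5 to 19.8, 48 of 314). In H3K9me3 alone, 7 of 37 UBF peaks (18.9%, 7.96 to 35.2) and 8 of 11 Pol I peaks (72.7%, 39.0 to 94.0) were shared. For UBF the share at partly active sites was above those at active and unmarked sites, with no overlap of the intervals. The classes in H3K9me3 alone are small and their intervals wide.

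Width sorted the sites in opposite ways as well. The share of UBF peaks with Pol I was 3.99% (2.83 to 5.46) in the narrowest of 4 width groups (216 to 832 bp) and 9.20% (7.41 to 11.2) in the widest (1195 to 6865 bp). The share of Pol I peaks with UBF was 32.6% (27.7 to 37.7) in the narrowest group (45 to 160 bp) and 15.7% (12.03 to 19.9) in the widest (306 to 3394 bp). Narrow Pol I peaks were mostly unmarked, at 217 of the 356 narrowest (61.0%) and 7 of the 351 widest (1.99%). Within each width group the intervals of active and unmarked Pol I peaks overlapped. From the narrowest group to the widest, the share with UBF was 28.9%, 20.4%, 19.4% and 16.7% at active Pol I peaks, and 33.2%, 21.6%, 13.0% and 14.3% at unmarked ones. Unmarked peaks thus had the higher share in the 2 narrower groups and the lower share in the 2 wider ones, where they numbered 23 and 7. UBF peaks were not split by width and chromatin together, so the part of width in the contrast of active and unmarked UBF peaks was not tested.

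By chromosome, UBF density varied less than Pol I density. UBF density ran from 4.26 peaks per 10 Mb on X to 19.4 on chromosome 11, and 10.4 to 19.4 among the autosomes. Pol I density ran from 1.08 on X to 14.03 on chromosome 11, and 2.00 to 14.03 among the autosomes. Chromosomes 11 and 15 carried 171 and 120 Pol I peaks, 12.2% and 8.53% of that list on the 20 chromosomes, against 6.46% and 3.80% of the UBF list. The number of UBF peaks per Pol I peak was therefore lowest on chromosome 15, at 1.16 (139 UBF and 120 Pol I peaks), followed by 11 (1.38), 17 (1.94), 4 (1.95) and 2 (2.20). It was highest on chromosome 14, at 5.92 (148 and 25 peaks), followed by 18 (5.43), 13 (5.07), 9 (4.16) and 1 (4.03).

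Pol I densities ran along with those of Pol II across chromosomes. Over the 20 chromosomes, Spearman's rho with Pol II peaks per Mb was 0.51 for UBF and 0.94 for Pol I, and with H3K4me3 peaks per Mb 0.57 and 0.88. It was 0.65 and 0.87 with H3K9me3 peaks per Mb, so the higher values for Pol I were not limited to the active lists. Between UBF and Pol I peaks per Mb rho was 0.64. These values describe 20 points that share gene density, base composition and copy number of the cell line, none of which was measured. Over 2565 bins of 1 Mb, rho with Pol II counts was 0.46 for UBF and 0.47 for Pol I. The difference between the proteins was thus seen over chromosomes and not over bins. Per 100 H3K4me3 peaks, chromosome 15 had 11.1 UBF and 9.58 Pol I peaks and chromosome 14 had 14.9 and 2.53, so the contrast between them remained on that scale. The share of Pol I peaks with UBF ranged from 10.8% on chromosome 6 (4.78 to 20.2, 8 of 74) to 41.7% on chromosome 16 (25.5 to 59.2, 15 of 36), and most intervals overlapped.

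**Figure D3:**
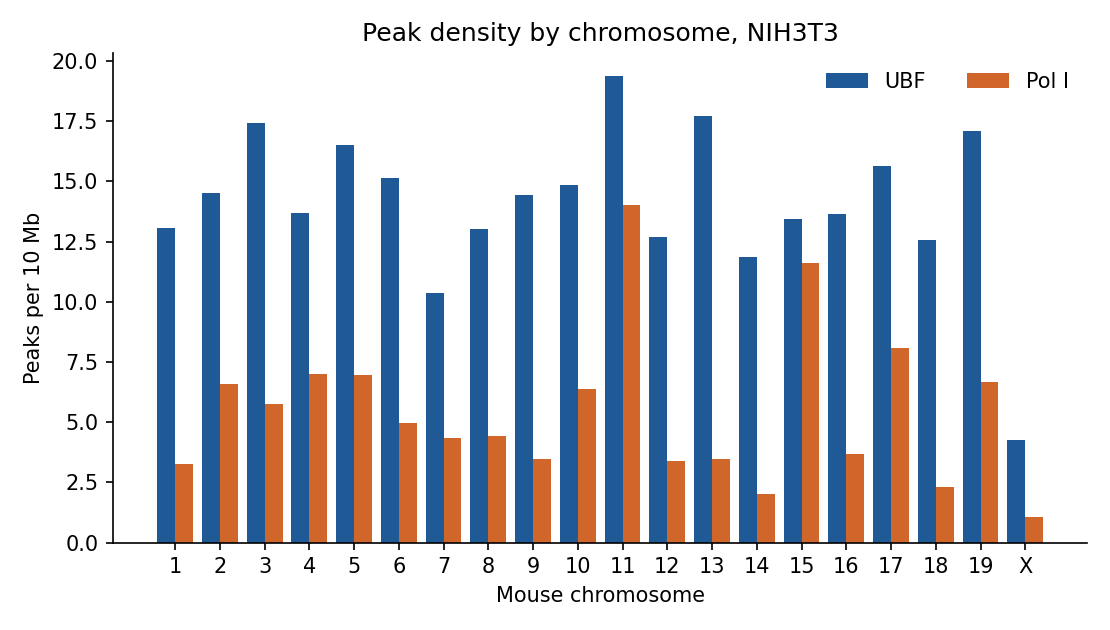
UBF (blue) and Pol I (orange) peaks per 10 Mb on mouse chromosomes 1 to 19 and X, as bars from 0. Pol I is densest on chromosomes 11 and 15, at 14.03 and 11.6, and UBF varies less among the autosomes, from 10.4 to 19.4.

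Most 1-Mb bins with Pol I also held UBF, and most bins with UBF held no Pol I. Of the 2565 bins with a peak of any NIH3T3 list, 720 (28.1%) held both proteins, 1076 (41.9%) held UBF alone, 121 (4.72%) Pol I alone and 648 (25.3%) neither. Thus 40.1% of bins with UBF (37.8 to 42.4) held Pol I and 85.6% of bins with Pol I (83.1 to 87.9) held UBF. Pol I was present in 15.7% of the bins with 0 UBF peaks, 30.6% of those with 1, 38.05% with 2, 52.1% with 3 and 65.0% with 4 or more. Spearman's rho of the 2 counts over bins was 0.32. It was 0.20 without the peaks that overlap between the lists, 0.25 in 500-kb bins and 0.50 in 5-Mb bins.

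UBF and Pol I counts were each closer to H3K4me3 counts than to each other, with rho of 0.46 and 0.48. The H3K4me3 list, with 27982 peaks, is far longer than the other 2, and the part of list length in this order was not tested. Within 4 groups of bins by H3K4me3 count, rho between UBF and Pol I was 0.14, 0.12, 0.20 and 0.18 from the poorest to the richest group. Bins with 18 to 71 H3K4me3 peaks held 38.1% of the UBF peaks and 60.8% of the Pol I peaks. Bins with at most 1 H3K4me3 peak held 11.6% and 4.90%. UBF peaks per Pol I peak were 6.14, 4.55, 3.37 and 1.63 from the poorest to the richest group. Pol I was thus more concentrated in the bins rich in H3K4me3 than UBF was.

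**Figure D4:**
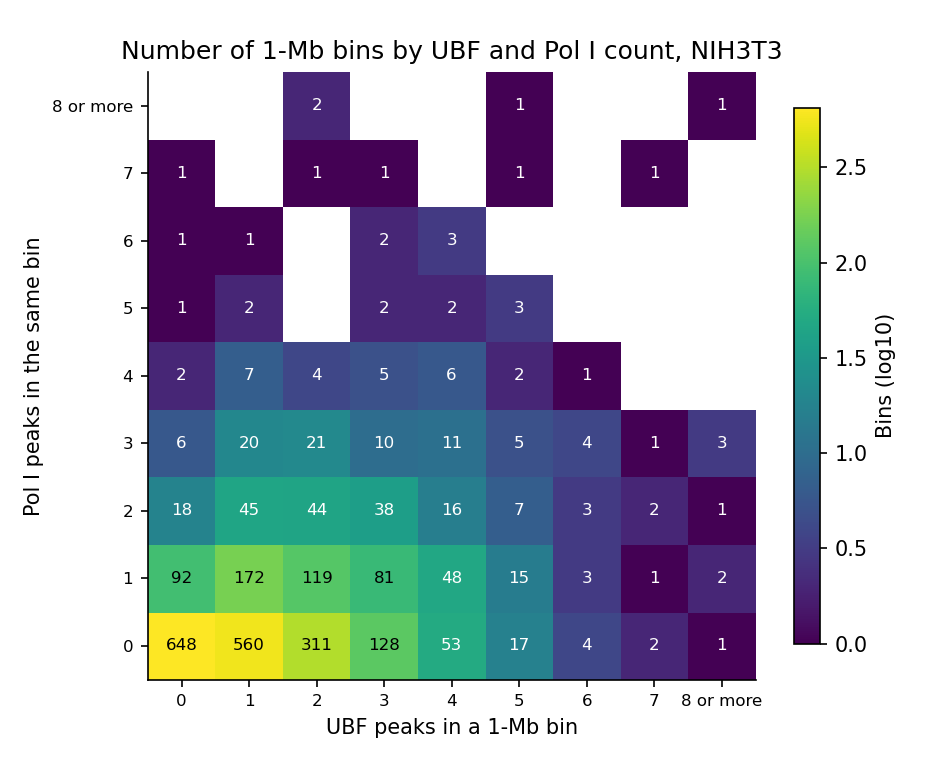
Number of 1-Mb bins with a given count of UBF peaks (x axis) and of Pol I peaks (y axis), written in each cell and coloured by its log10, with counts of 8 or more pooled. Of the 2565 bins, 648 held neither protein, 1076 held UBF alone (lowest row) and 121 held Pol I alone (left column).

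The fullest bins of the 2 lists differed, with 1 exception. UBF was densest in a pair of bins of chromosome 13, from 23000001 to 24000000 with 27 UBF and 3 Pol I peaks and from 21000001 to 22000000 with 15 and 3. Mouse chromosome 13 carries the largest group of histone genes, but no annotation of the build was used here, and whether these peaks lie in it was not tested. Next came chromosome 12 from 70000001 (10 UBF, 2 Pol I) and chromosome 3 from 96000001 (9 and 1). Pol I was densest on chromosome 11 from 98000001, with 5 UBF and 15 Pol I peaks. Then followed chromosome 15 from 98000001 (2 and 10) and from 76000001 (2 and 9), and chromosome 10 from 80000001 (3 and 7), which tied with 4 other bins. The bin on chromosome 11 from 68000001 stood among the fullest of both lists, with 8 UBF peaks, tied with 3 other bins, and 14 Pol I peaks. Of those, 3 UBF peaks and 4 Pol I peaks overlapped the other list, where 7.32% and 20.9% of the whole lists did. In the fullest Pol I bin, on chromosome 11 from 98000001, 14 of the 15 Pol I peaks were active, against 763 of all 1409, and 2 overlapped UBF, against 294 of 1409.

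Most peaks of both lists stood alone. Peaks of the 2 lists were chained into clusters where neighbouring peaks were at most 25 kb apart. Of the UBF peaks 3004 (81.1%) and of the Pol I peaks 840 (59.6%) had no neighbour of either kind at that range. The 557 clusters of 2 or more peaks comprised 375 with both proteins, 115 with UBF only and 67 with Pol I only. Overlapping peaks form a mixed cluster by definition, and 269 of the 375 held such a pair, while 106 brought the proteins together without overlap. Clusters with both held 436 UBF peaks (11.8%, 10.8 to 12.9) and 422 Pol I peaks (30.0%, 27.6 to 32.4). The Pol I share was 25.6% with a limit of 10 kb and 52.5% with 100 kb, so it is tied to the chosen gap.

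The 3 largest UBF clusters held 1 Pol I peak in all. On chromosome 13, 13 UBF peaks lay from 23622650 to 23678004 and 13 from 21808222 to 21926412, both without a Pol I peak, and 9 lay from 23830452 to 23854523 with 1 Pol I peak. The single Pol I peak (23852923 to 23853047, 124 bp) lay inside a UBF peak (23852482 to 23853309). It was the only overlap in the 3 clusters. Across the whole list 7.32% of UBF peaks overlapped Pol I, and 7.73% of active ones did, so few overlaps would be met in clusters of this size. The count is too small to set these clusters apart. All UBF peaks of these 3 clusters were active, and none overlapped H3K9me3. The next largest, on chromosome 3 from 96023552 to 96074372 with 6 UBF peaks, held no Pol I. Then came 4 clusters tied at 4 UBF peaks, of which 3 held Pol I and the shortest, on chromosome 6 from 52113312 to 52127700, did not.

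The largest Pol I clusters were of several kinds. On chromosome 11, from 68850391 to 68884957, 3 UBF peaks stood with 6 Pol I peaks, 2 of each overlapping the other list, all on H3K4me3 and none on H3K9me3. A second cluster nearby, from 68912721 to 68937988, held 2 UBF and 4 Pol I peaks. Among mixed clusters, one of chromosome 13 (22121133 to 22135578) had 4 UBF peaks and 1 Pol I peak without overlap. In contrast, 5 Pol I peaks from 48613896 to 48670167 and 4 from 98724604 to 98725877 of chromosome 11 had no UBF, and all 9 overlapped H3K4me3. Of the 5, only 1 overlapped Pol II, whereas all 4 of the second group did. On the X chromosome, 4 Pol I peaks between 104651221 and 104652644 had no UBF and were unmarked, and they were 4 of the 18 Pol I peaks on that chromosome.

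**Figure D5:**
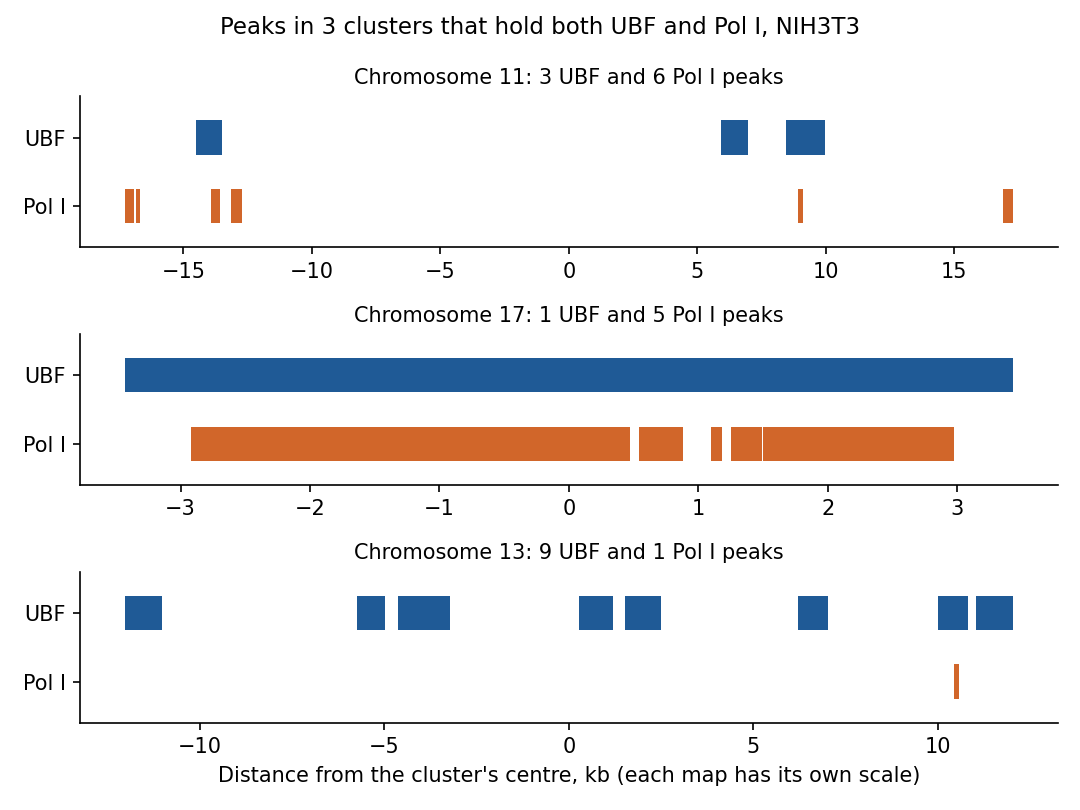
Peaks of UBF (blue, upper row) and Pol I (orange, lower row) in 3 clusters that hold both, drawn to scale as distance in kb from each cluster's centre. The chromosome 11 cluster has 3 UBF and 6 Pol I peaks, the chromosome 17 site 1 UBF peak over 5 Pol I peaks, and the chromosome 13 cluster 9 UBF peaks and 1 Pol I peak. Peaks a few bp apart run together at this scale.

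The UBF peaks with the most Pol I were led by 1 site on chromosome 17 that every NIH3T3 list marks. There a UBF peak from 39979429 to 39986294 (6865 bp) held 5 Pol I peaks of 3394, 343, 78, 237 and 1473 bp, which covered 80.5% of it. Whether ribosomal sequence lies in this interval was not tested, because no annotation of the build was used. The site can therefore not be taken as one outside the arrays. No other shared UBF peak of the 10 with the most Pol I peaks was covered by more than 51.2%. That share belonged to a UBF peak on chromosome 7 from 89919189 to 89921075 with 3 Pol I peaks of 110, 517 and 338 bp, which overlapped Pol II, H4 hyperacetylation and H3K9me3 and neither H3K4me3 nor H3K9ac. Another, on chromosome 17 from 16153647 to 16155669, held Pol I peaks of 225 and 132 bp in H3K9me3 alone. Ties went by width, so only the widest of the 17 UBF peaks with 2 Pol I peaks entered the 10. A narrower one, on chromosome 11 from 98543443 to 98544641 (1198 bp), had 854 and 74 bp covered by its 2 Pol I peaks. That is a larger part than in any of the 10 but the first. Of the 10 UBF peaks, 7 were active, against 136 of all 271 shared UBF peaks, and 8 overlapped H3K9me3, against 83 of 271 (30.6%, 25.2 to 36.5). The 10 were 1588 to 6865 bp wide, where the median of all shared UBF peaks was 1061 bp. Wider peaks have more room to overlap any list, so these counts cannot be told apart from an effect of width.

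The 10 widest shared UBF peaks were all active, against 136 of all 271 shared UBF peaks, and 8 of them also overlapped H3K9me3. They were chosen by width, and a wider peak has more room to overlap any list. After the chromosome 17 site came a UBF peak on the same chromosome from 84584197 to 84588167 (3970 bp), with Pol I peaks of 287 and 290 bp centred 360 and 910 bp from its middle. On chromosome 15 a UBF peak from 61816827 to 61820095 (3268 bp) held a Pol I peak of 271 bp at 1103 bp from its middle. On chromosome 4 one from 94716424 to 94719998 (3574 bp) held a Pol I peak of 468 bp at 566 bp. The closest to the centre among the sites with 1 Pol I peak was on chromosome 12, from 50483394 to 50487063 (3669 bp), with a Pol I peak of 140 bp at 110 bp from the middle.

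Pol I lay less centrally in the UBF peaks of the human line HMEC, mammary epithelial cells immortalized with TERT, where the same antibodies gave 9478 UBF and 9294 Pol I peaks. Of the overlapping Pol I peaks, 65.3% in NIH3T3 (59.6 to 70.7, 294 pairs) and 35.6% in HMEC (29.8 to 41.6, 270 pairs) had their centre in the central 33.3% of the UBF peak. The Pol I peak lay wholly inside in 90.1% (86.1 to 93.3) and 43.3% (37.3 to 49.5). The 294 pairs of NIH3T3 came from 3704 UBF and 1409 Pol I peaks. The 270 pairs of HMEC came from longer lists and were thus a smaller part of both, so the lines differed in overlap as well as in position. UBF peaks were wider in NIH3T3, with medians of 981 and 469 bp, and Pol I peaks narrower, with medians of 230 and 290 bp, and their part in the difference was not tested. The 2 lines differ in species and build, each has 1 list per antibody, and no test of the difference was possible.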

How the data were processed

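For each antibody and cell line the authors deposited a single peak list giving chromosome, start and end, with no score. The submitters' processing notes name CASAVA 1.8.2, BWA, Picard, mm9 and hg19 without their roles. The peak caller, its threshold and the origin of the positions were not named in the sources used here. For UBF in NIH3T3, 2 biological replicates are mentioned in the design, and whether the single list pools them is not stated.

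Python 3.11.15, numpy 2.4.6, pandas 2.3.3 and scipy 1.17.1 were used. Distances run between peak centres unless edges are named. Bins and chromosome densities use peak centres on chromosomes 1 to 19 and X, with length taken as the furthest peak end of any NIH3T3 list. The 46 UBF peaks on contigs without a Pol I peak have no distance. Medians carry order-statistic intervals. The code was tested on simulated lists with planted overlaps. Sites named were the 10 UBF peaks with most Pol I peaks (ties by width), the 10 widest shared, the 5 fullest bins and largest clusters of each kind and the 5 chromosomes of highest and lowest ratio. The peaks compared, the rules and the alternatives were chosen with earlier results of these data known. No genome or annotation of mm9 was used here, so peaks are identified by position and no sequence is shown.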

Additional observations from a re-analysis of the deposited data

How the results depend on the processing

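Of 34 alternatives to 8 results, 20 gave a value inside the main 95% interval and 14 outside it, as follows. With at least 50% of the peak covered, 0.081% of UBF peaks met Pol I. In the wider 50% of each list, overlap fell to 4.47% of UBF and 13.05% of Pol I peaks, and median centre distances grew to 1089 kb from UBF and 170.9 kb from Pol I. There, 81.5% of overlapping Pol I peaks lay wholly inside UBF, 46.7% had their centre in the central 33.3%, and 20% of Pol I peaks stood in a cluster with UBF. The central share was 71.5% for UBF peaks of 800 bp to below 1200 bp, added after the data were seen. The Spearman correlation of the 2 counts over bins was 0.25 in 500-kb bins, 0.50 in 5-Mb bins and 0.20 without overlapping peaks. Clusters with UBF held 25.6% of Pol I peaks at 10 kb and 52.5% at 100 kb. Intervals for this correlation are Fisher approximations used only for this sorting. Both lists are cut to 50% in the wider lists, so a peak there has fewer possible partners. The fall in overlap and the longer distances therefore do not show that wider peaks meet the other protein less. Whether width has a part in these changes was not tested. Leaving out the widest site, also added after the data were seen, gave 7.29% and 20.6% overlap. No paired analysis was possible because each antibody has 1 list. Depth is unknown, so a missing peak does not show that the protein was absent.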

Other observations

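The lines of the Pol I file are not in order of position within a chromosome, whereas those of the UBF file are (0 lines out of order). On all 20 chromosomes the width of Pol I peaks fell with line number, with Spearman's rho from -0.60 to -0.05 and a median of -0.43. With the lines of each chromosome cut into 10 equal parts, the first part had a median width of 391 bp and the last 186 bp. The share overlapping UBF was 23.2% (16.6 to 31.1) in the first part, 18.3 to 25.5% in the next 8, and 9.93% (5.54 to 16.1) in the last. What the line order stands for was not stated in the sources used here.

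Both lists leaned towards the far end of the chromosomes, away from the centromere, which lies at the start of mouse chromosomes. The first 20% of chromosome length held 16.9% of UBF peaks (15.7 to 18.2) and 14.5% of Pol I peaks (12.7 to 16.4), and the last 40% held 45.2% (43.6 to 46.9) and 51.2% (48.6 to 53.9). For comparison, the first 20% held 15.0% of Pol II peaks, 15.6% of H3K4me3 peaks and 20.2% of H3K9me3 peaks. The last 40% held 51.0% of Pol II peaks, 48.2% of H3K4me3 peaks and 42.4% of H3K9me3 peaks.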
